A study of Trichoderma reesei with 18 samples.

Results

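The 80 genes described here were at least 2-fold lower in light than in darkness in 2 strains of the filamentous fungus Trichoderma reesei, the deletion mutant Δ80186 and the wild type QM6a (WT). In the deletion mutant Δ21168 they were lowered less by light, not lowered or raised. They were chosen from the 10879 rows of a table of RNA sequencing read counts. Each library's counts were scaled to a share of its total, in counts per 1000000 (CPM), and averaged per group. The light response L of a strain was log2 of its mean in light plus 1 CPM over its mean in darkness plus 1 CPM. To be a member, a gene needed 5 CPM or more in the mean of 1 group or more, an L of -1 or lower in Δ80186 and in WT, and an L above -0.5 in Δ21168. Of the 8009 rows past the CPM minimum, 647 had an L of -1 or lower in Δ80186 and WT. The members were 12.4% of these, 487 were also at -1 or lower in Δ21168, and 80 lay between the limits in Δ21168.

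The libraries came from mycelium of Δ21168, Δ80186 and WT, each in light and in darkness, with 3 libraries in each of the 6 groups. Δ21168 lacks the gene TR21168 and Δ80186 lacks TR80186, both made in the strain QM6a, which is otherwise the WT here. All cultures grew for 96 h at 28 °C in minimal medium with cellulose, under illumination throughout or in the dark throughout. Library totals were 7945697 to 12415791 counts in Δ21168, 11626426 to 15541825 in Δ80186 and 11249966 to 15672321 in WT. The labels do not say whether the 3 libraries of a group are separate cultures or whether a mutant is more than 1 transformant. The p-values therefore reflect how far the libraries of a group lie apart, and that spread may be technical only. Library numbers in the sample descriptions put Δ21168 in a series of its own, in light and in darkness alike, so that a library batch and the deletion cannot be told apart in comparisons of Δ21168 with the other strains. Of the rows, 1 (TrE0746W) had 0 reads in all libraries of Δ21168 and 987 to 1710 in the others, and 1 (TrD0367C) had at most 2 reads in Δ80186 and 751 to 2269 in the others. Both were singled out by that loss.

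The series title places TR21168 and TR80186 among the MAP kinase kinases, of the pheromone and the HOG pathway. In fungi such a kinase is the middle step of a chain in which each kinase activates the next, and the last one acts on transcription factors and other targets. The pheromone pathway is known for mating and for hyphal growth and fusion, and the HOG pathway for the response to osmotic stress. Trichoderma reesei is grown for its cellulases, and light is known to alter the transcription of many of its genes, with blue light receptors at the start of the response. The table pairs its identifiers with no gene names and 0 of them were found in the RefSeq table used, so the members are given by identifier, without function and without sequence.

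What the rule fixed is that L, with its added 1 CPM, was above -0.5 in Δ21168. Where both means are near 0 CPM, the added 1 CPM draws L toward 0. TrC0020W, at 0.0312 CPM in light and 0.279 CPM in darkness in Δ21168, had an L of -0.31 there. TrC1119C, at 0.294 and 0.627 CPM, had -0.33. Their log2 fold changes of light against darkness in Δ21168 from edgeR, on few reads, were -2.84 and -1.28. L ranged over the members from -0.50 to 1.27 in Δ21168 (median -0.16), from -5.76 to -1.004 in Δ80186 (median -1.46) and from -5.14 to -1.01 in WT (median -1.56). In Δ21168, 23 members had an L above 0 and 57 one of 0 or below, and 8 were reversed, with an L above 0.5. All 3 libraries in light lay below all 3 in darkness for 80 members in Δ80186 and for 80 in WT, which the L demanded of these strains nearly fixes. The share of all rows was not counted there. At an adjusted p under 0.05 in edgeR's quasi-likelihood test, 80 members were lower in light in Δ80186 and 80 in WT. Among the 9079 genes tested these counts were 2304 and 2596. The counts of members are again nearly fixed by the rule. In Δ21168 all light libraries lay below the dark ones for 18 members (25.5% of all rows past the CPM minimum), 8 had their light libraries above (36.5% of all rows), and 54 overlapped. Light against darkness within Δ21168 was put to the same test, at an adjusted p under 0.05. Of the members, 17 were called lower in light (29.7% of the 9079 genes tested) and 8 higher (30.5%). The rule selected on this same difference. These numbers describe the choice of members and support nothing further. In whole mycelium, fewer cells that express a gene and less of its RNA per cell cannot be told apart.

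At the limits, the members nearest to -0.5 in Δ21168, TrD1323C and TrC1580C, had an L of -0.50 and -0.49, and the 2 nearest rows outside had -0.51 and -0.53. In WT the nearest members had -1.01 and -1.03 and the nearest rows outside -0.99 and -0.98. In Δ80186 these were -1.004 and -1.02 inside and -0.99 and -0.99 outside. The lowest members by highest group mean had 5.13 and 5.39 CPM, and the next rows 4.6 and 3.84 CPM. Many members lie close to a limit. With each library left out in turn, 43 of the 80 met the rule every time, and 72 to 80 did in a single omission. Of the 14 members named by the rule for named genes, 9 missed it with some library left out: TrA2079C, TrA2081W, TrB0797W, TrC1119C, TrC1580C, TrD0037W, TrD1323C, TrE1258C and TrF1049W. With library sizes scaled by TMM factors in place of totals, 64 rows met the rule, all of them members.

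**Figure D1:**
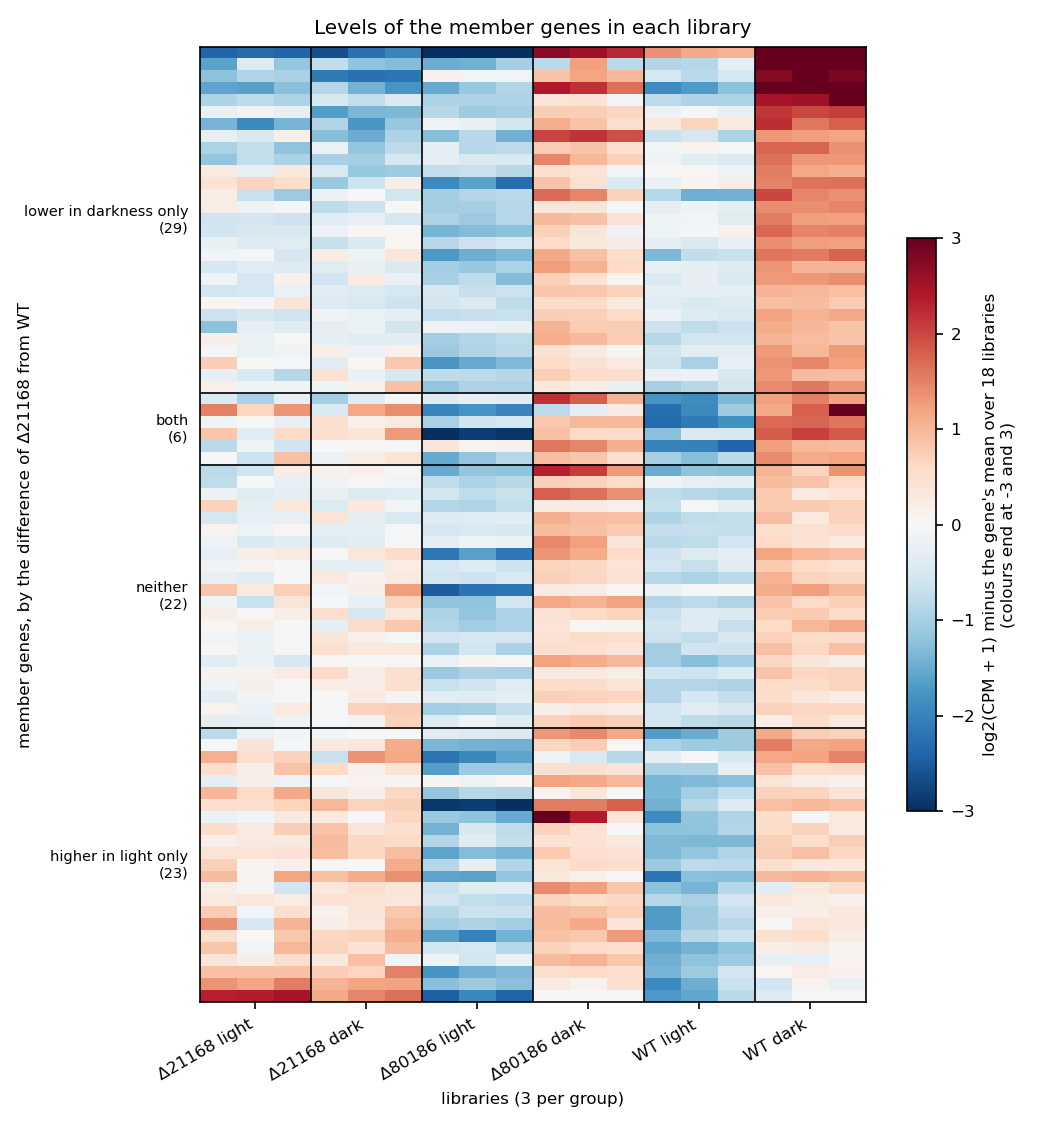
Level of the 80 member genes (rows) in each of the 18 libraries (columns, 3 per group), as log2(CPM + 1) minus the gene's mean over all libraries, red above and blue below that mean. Rows are grouped by how Δ21168 differed from WT, in blocks of 29, 6, 22 and 23 genes; the 3 light and the 3 dark columns of Δ21168 have similar colours, while light is bluer than darkness in Δ80186 and WT.

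Such a weak or reversed response can come about by a lower level in darkness, by a higher level in light, or by some of each, and the rule did not fix which. The members were divided over all of these. Against WT, 29 were at least 2-fold lower in darkness in Δ21168 without being 2-fold higher in light, 23 were at least 2-fold higher in light without being 2-fold lower in darkness, 6 were both and 22 were neither. Folds here are of means plus 1 CPM. In all, 29 members were 2-fold higher in light (5.42% of all rows past the CPM minimum) and 2 were 2-fold lower (3.55%), and in darkness 35 were 2-fold lower (6.01%) and 2 were 2-fold higher (6.52%). For the 29 genes of the first class the name of a lost repression is loose, since the class is set by a lower level in darkness. Their median log2 ratio to WT was 0.01 in light and -1.71 in darkness, which follows in part from the class limits. Single genes of the class did differ from WT in light. TrC0947C was at -3.55, with its libraries below those of WT, and TrF0031C at 0.87, with its libraries above. Most of the 80 took an intermediate level in Δ21168. Its mean in light lay between the WT means in light and darkness for 56 members, its mean in darkness for 47, and both for 43. For 10 members the Δ21168 mean in light was above the WT mean in darkness, and for 17 the Δ21168 mean in darkness was below the WT mean in light.

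In light, the log2 ratio of Δ21168 to WT ranged from -3.55 to 3.70 over the members, with a median of 0.68, against a median of 0.09 over all rows past the CPM minimum. All 3 Δ21168 libraries were above all 3 WT libraries for 58 members (35.2% of all rows) and below them for 8 (21.6% of all rows). In darkness the ratio ranged from -6.51 to 1.58, with a median of -0.76, against 0.00 over all rows. Here the Δ21168 libraries were below those of WT for 52 members (26.3% of all rows) and above for 6 (24.3% of all rows). In edgeR's quasi-likelihood test over all 9079 genes tested, with an adjusted p under 0.05, 47 members were called higher and 8 lower in light, against 19.5% and 20.5% of the genes tested. In darkness 5 were called higher and 53 lower, against 23.7% and 23.5%. The count of 5 was 3 without WT dark replicate 1 and 3 without WT dark replicate 2. Since the rule fixed the difference between both comparisons, these counts describe the members and are no independent result.

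**Figure D2:**
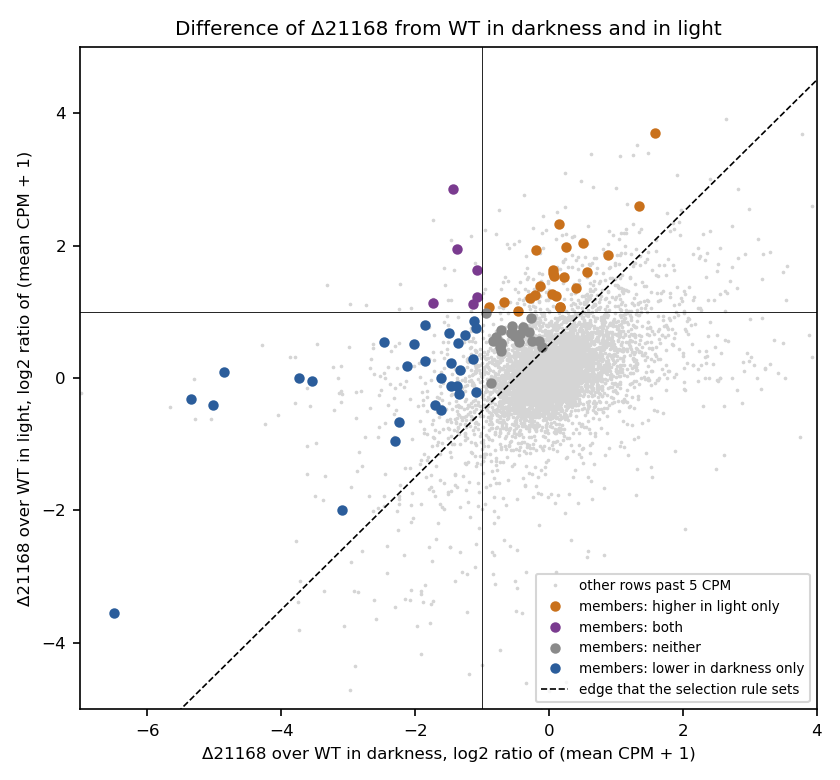
Log2 ratio of Δ21168 to WT in darkness (x axis) and in light (y axis), from group means plus 1 CPM, for the members (coloured by class) and all other rows past 5 CPM (grey, some beyond the axes). The dashed line is the edge that the rule sets, and thin lines mark 2-fold lower in darkness and 2-fold higher in light. The members lie above the edge, from 29 genes at the left (lower in darkness only) to 23 at the upper right (higher in light only). Some at the left lie far from it, such as TrB0797W at -5.34 in darkness and -0.32 in light.

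The classes also differed in level. The 29 genes lower in darkness had median levels of 10.5 CPM in light and 8.44 CPM in darkness in Δ21168, 6.25 and 19.99 CPM in Δ80186, and 7.16 and 40.7 CPM in WT, each time with light before darkness. The 23 genes higher in light had medians of 15.6 and 17.2 CPM in Δ21168, 4.2 and 16.4 CPM in Δ80186, and 3.7 and 16.5 CPM in WT. In this class the level of Δ21168 in light was near that of all strains in darkness. Of the 8 reversed members, 6 were in the class lower in darkness and 2 in the class higher in light. The 22 members that passed neither 2-fold limit had the smallest median response in WT among the 4 classes, an L of -1.25. This follows in part from how the classes were set.

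TrC0947C stood lowest against WT among the members, in light and in darkness. It had 29, 30.2 and 28.1 CPM in the light libraries of Δ21168 and 23.9, 31.8 and 38.4 CPM in its dark libraries. In Δ80186 it had 12.6, 17.8 and 14.9 CPM in light and 987, 897 and 739 CPM in darkness, and in WT 398, 339 and 320 CPM in light and 3206, 2564 and 3057 CPM in darkness. Thus Δ21168 lay below the WT libraries in both conditions, and its light and dark libraries overlapped. TrB0797W, the second lowest in darkness, had 3.19, 8.69 and 4.75 CPM in light and 6.7, 4.53 and 4.19 CPM in darkness in Δ21168, against 5.96, 6.06 and 9.45 CPM in light and 192, 341 and 211 CPM in darkness in WT. Both Δ21168 groups overlapped with WT in light, and WT in darkness stood alone. In Δ80186 it had 3.55, 3.7 and 5.37 CPM in light and 6.25, 28.9 and 6.31 CPM in darkness, so that dark replicate 2 sets that group's mean. Without that library its L in Δ80186 was -0.48, so its membership rests on 1 library.

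TrG0897W was the most abundant member and the one with the highest L in Δ21168, 1.27. Its libraries in Δ21168 had 1201, 1304 and 1182 CPM in light and 436, 540 and 550 CPM in darkness. In Δ80186 it had 785, 668 and 709 CPM in light and 2349, 2347 and 2199.8 CPM in darkness, and in WT 1237, 1369 and 1183 CPM in light and 6225, 5675 and 5911 CPM in darkness. In light the libraries of Δ21168 and WT overlapped, and in darkness those of Δ21168 were the lowest of the 3 strains. TrF1049W, with an L of 1.14 in Δ21168, had 92.7, 117 and 112 CPM in light and 50, 45.6 and 48.5 CPM in darkness there. It had 239, 208 and 206 CPM in light and 398, 501 and 440.2 CPM in darkness in Δ80186, and 152, 125 and 151 CPM in light and 1459, 1741 and 1565 CPM in darkness in WT. Among the 3 strains, Δ21168 was thus lowest in light and in darkness. TrC1119C, second lowest in light, is a weak transcript: it had 0.44, 0 and 0.44 CPM in Δ21168 and 3.73, 5.04 and 3.61 CPM in WT in light. In darkness it had 1.03, 0.126 and 0.725 CPM in Δ21168 and 16.4, 10.3 and 12.2 CPM in WT, so that Δ21168 lay below WT in both conditions.

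TrA2081W was at the other end. In Δ21168 it had 1435, 1462 and 1565 CPM in light and 625, 782 and 893 CPM in darkness. In Δ80186 it had 50.6, 73.2 and 53 CPM in light and 283, 280 and 271 CPM in darkness, and in WT 84.6, 96 and 160 CPM in light and 217, 272 and 277 CPM in darkness. All 6 libraries of Δ21168 were above the other 12, and its light libraries were above its dark ones. Its log2 ratio to WT was 3.70 in light and 1.58 in darkness, the highest of the members in both. TrA2079C, second in darkness with a ratio of 1.34, had 12.7, 11.2 and 14.7 CPM in light and 10, 11.3 and 11.4 CPM in darkness in Δ21168, against 0.445, 0.957 and 2.45 CPM in light and 2.65, 4.83 and 3.62 CPM in darkness in WT. Its 6 libraries in Δ21168 were above all those of WT, at a level of few reads. TrA0355W, second in light with a ratio of 2.86, had 18.6, 9.81 and 16.4 CPM in light and 4.02, 14.5 and 17.2 CPM in darkness in Δ21168. In WT it had 0.444, 0.829 and 2.31 CPM in light and 14.1, 23 and 65.1 CPM in darkness, a spread of more than 4-fold among the dark libraries, which overlapped with those of Δ21168.

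**Figure D3:**
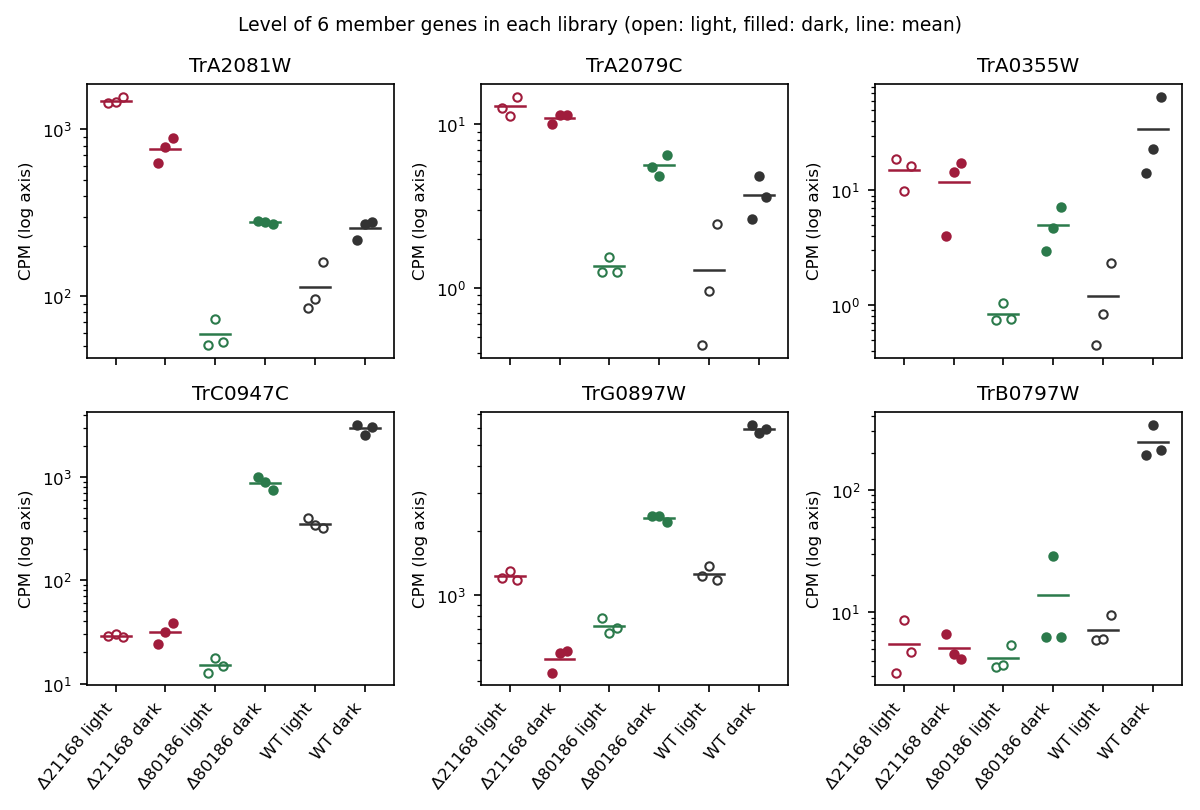
CPM (log axis) of 6 member genes in each library, by group, with open points for light, filled points for darkness and a line at the mean of 3 libraries. The upper row shows members raised in Δ21168 in light (TrA2081W at 1435 to 1565 CPM, against 84.6 to 160 in WT), and the lower row members lowered in Δ21168 in darkness (TrC0947C at 23.9 to 38.4 CPM, against 2564 to 3206 in WT).

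The difference between strains averaged over light and darkness was tested, since the rule uses differences between light and darkness. The separation is approximate, because the added 1 CPM and the CPM minimum bring level into the rule. A gene near 0 CPM in both Δ21168 groups has an L near 0 there. The fall of such members, as of TrG1069W and TrC1119C, therefore follows in part from the choice. The sign of the averaged difference shows which of the changes was the larger, the one in light or the one in darkness. For Δ21168 against WT, 21 members rose and 26 fell at an adjusted p under 0.05 in edgeR's quasi-likelihood test over all genes tested, against 25.6% and 25.9% of the 9079 genes. The remaining 33 did not pass. All 80 members had passed the filter on low counts. The 21 of 80 that rose were near the background share and the 26 that fell somewhat above it, and the median log2 fold change was 0.03 for the members and 0.01 for all genes tested. It was -0.05 for the members without Δ21168 dark replicate 3, and 37 members were then above 0, against 42 with all libraries. A fold of at least 2 was reached by 11 of the members that rose (6.94% of the genes tested) and 12 of those that fell (4.78%), both above the background in share. The 12 include members near 0 CPM in Δ21168, whose fall follows in part from the rule. By class, 25 of the 29 members lower in darkness fell and 19 of the 23 members higher in light rose. The classes were set on the same libraries, so this follows in part from them.

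Among members with at least 20 CPM in a group, TrA2081W and TrD0037W rose most. The averaged log2 fold change of TrA2081W was 2.61 ± 0.15 (SE; adjusted p = 4.9e-09 in edgeR's test). TrD0037W had 95.8, 95.7 and 96.2 CPM in light and 86.8, 81.2 and 149 CPM in darkness in Δ21168, against 18.8, 24 and 34.1 CPM in light and 53.3, 60.2 and 56.3 CPM in darkness in WT. Its libraries in Δ21168 were above those of WT in both conditions, with an averaged log2 fold change of 1.36 ± 0.15 (SE; adjusted p = 3.5e-06 in edgeR's test). TrC0947C fell most, by 5.11 ± 0.13 (SE) on the log2 scale (adjusted p = 1e-13 in edgeR's test). TrG1069W followed, with 0.22, 0.187 and 0.553 CPM in light and 1.03, 0.378 and 0.0805 CPM in darkness in Δ21168, against 0, 0.128 and 0.577 CPM in light and 40.2, 31.8 and 55.5 CPM in darkness in WT. Its averaged fold change of -3.10 ± 0.69 (SE; adjusted p = 0.0014 in edgeR's test) rests in light on 0, 2 and 8 WT reads. Without WT light replicate 3 it was -2.32 and missed the threshold (adjusted p = 0.12 in edgeR's test; range over 24 alternatives 2e-07 to 0.12).

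For Δ80186, in which light lowered the members as the rule demands, the averaged difference from WT was tested in the same way, with the same WT libraries. Here 19 members rose and 37 fell, against 27.5% and 29.9% of the genes tested, and 24 did not pass. The share that fell was above the background and the share that rose was near it. Of the 26 members that fell in Δ21168, 21 also fell in Δ80186, 0 rose and 5 did not pass. Of the 21 that rose in Δ21168, 8 rose in Δ80186, 3 fell and 10 did not pass. Both comparisons share the WT libraries, and this overlap was not counted over all genes tested. The median log2 fold change was -0.28 for the members and -0.02 for all genes tested. At least 2-fold, 6 rose (7.38% of the genes tested) and 12 fell (5.71%). The CPM minimum enters these counts. TrB1107C and TrA1946W, among the 6, reached it only in Δ80186 in darkness, at 5.13 and 5.72 CPM. TrB0205W, among the 12, reached it only in WT in darkness, at 6.96 CPM. The direction of such members follows in part from the choice. Against WT, the members' median log2 ratio in Δ80186, from means plus 1 CPM, was -0.20 in light and -0.21 in darkness. In Δ21168 it was 0.68 in light and -0.76 in darkness, so that both mutants were below WT in darkness at the median. In light 6 were 2-fold higher (8.35% of all rows) and 8 were 2-fold lower (8.08%), and in darkness 3 were 2-fold higher (4.78%) and 14 were 2-fold lower (4.78%). All 3 Δ80186 libraries were above those of WT in light for 19 members (32.5% of all rows) and below for 34 (40.8%). In darkness they were above for 17 (26.5%) and below for 39 (26.3%).

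Among members with at least 20 CPM in a group, TrE1258C and TrD1015C rose most in Δ80186. TrE1258C had 79.8, 66.4 and 67.4 CPM in light and 187, 171 and 132 CPM in darkness in Δ80186, against 14.7, 14.3 and 11 CPM in light and 147, 124 and 119 CPM in darkness in WT. Its libraries lay above WT in light and overlapped in darkness, with an averaged log2 fold change of 1.39 ± 0.12 (SE; adjusted p = 7.1e-08 in edgeR's test). In Δ21168 it had 34.7, 56 and 40.01 CPM in light and 61.1, 63.3 and 58.6 CPM in darkness. TrD1015C had 72.3, 38.8 and 8.81 CPM in the dark libraries of Δ80186 and 10, 6.51 and 8.32 CPM in those of WT, which overlap. Its averaged fold change of 1.13 ± 0.44 (SE; adjusted p = 0.042 in edgeR's test) passed in 7 of 24 alternatives (adjusted p 0.00016 to 0.12), and was 0.79 without Δ80186 dark replicate 1, which did not pass. TrC0947C fell by 3.14 ± 0.12 (SE) on the log2 scale in Δ80186 (adjusted p = 1.3e-11 in edgeR's test), and TrB0797W by 2.45 ± 0.40 (SE; adjusted p = 0.00018 in edgeR's test).

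**Figure D4:**
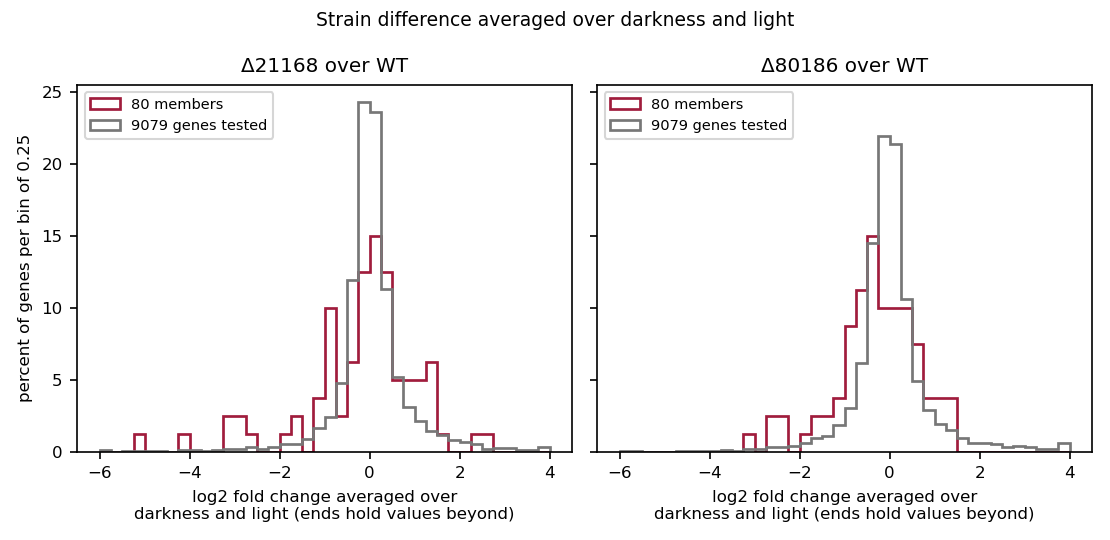
Share of genes (percent per bin of 0.25) by the log2 fold change of Δ21168 over WT (left) and of Δ80186 over WT (right), each averaged over light and darkness, for the 80 members (red) and the 9079 genes tested (grey). The members are centred near 0 in Δ21168 (median 0.03) and lie lower in Δ80186 (median -0.28). In Δ21168, 11 members rose at least 2-fold at an adjusted p under 0.05 in edgeR's test (6.94% of the genes tested) and 12 fell (4.78%). The bins at both ends hold values beyond them.

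Set directly against each other, the mutants differed in the members in opposite directions by condition, which again is part of what the rule asked for. The median log2 ratio of Δ21168 to Δ80186 was 0.86 in light and -0.64 in darkness, against 0.13 and -0.02 over all rows past the CPM minimum. All 3 libraries of Δ21168 were above those of Δ80186 in light for 58 members (44.3% of all rows) and below for 5 (30%). In darkness they were above for 5 (22%) and below for 43 (28%). The reads of all members together made up 5911 ± 180 CPM in light and 4734 ± 443 CPM in darkness in Δ21168. They made up 3240 ± 130 and 9688 ± 850 CPM in Δ80186 and 3731 ± 57.5 and 16607 ± 657 CPM in WT (SD, n = 3 each, light before darkness). TrG0897W and TrC0947C together held 53.5% of this sum in WT in darkness and 11.4% in Δ21168 in darkness.

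The mirror set, of 112 rows with an L of -1 or lower in Δ21168 and WT and above -0.5 in Δ80186, was divided differently. By the same 2-fold limits, now of Δ80186 against WT, 75 of its genes were higher in light only, 27 lower in darkness only, 3 both and 7 neither. Among the members these counts were 23, 29, 6 and 22. The difference between both sets was not tested. A loss in both mutants was met by 93 rows. In the 487 rows lowered by light in every strain, the median log2 ratio to WT was 0.41 in light and 0.19 in darkness in Δ21168 and 0.37 and 0.29 in Δ80186.

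The spread between libraries was widest in Δ21168 in darkness. The median coefficient of variation over the members was 17.5% in light and 19.7% in darkness in Δ21168, 12.7% and 11.9% in Δ80186, and 14.6% and 11.2% in WT. Rank correlations of counts between the dark libraries of Δ21168 were 0.982, 0.979 and 0.989, the first 2 of them with replicate 1, and 0.9897 or higher within the other groups. Without replicate 1, 74 of the 80 still met the rule, and the median L of the 80 in Δ21168 was -0.18. Replicate 3 had the highest level of the dark libraries for the members summed, 5181 CPM against 4295 and 4725 CPM. The median L was -0.11 without it, and 77 members still met the rule.

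Each identifier holds a letter from A to G, then a number, then W or C. Members carried all 7 letters, and their share of the rows past the CPM minimum was 1.53% for B (23 members) and 0.74% to 1.32% for the other letters. The last letter was W in 39 and C in 41. Another member lay within 3 numbers of 10 members, in 5 pairs, of which 2 had adjacent numbers. Whether numbers follow the order along the chromosomes is not stated in the sources used here, and reads of overlapping neighbours could not be told apart. TrF0801C and TrF0802C, an adjacent pair with the same ending, had alike profiles. TrF0801C averaged 179 CPM in light and 189 CPM in darkness in Δ21168, 117 and 474 CPM in Δ80186, and 195 and 525 CPM in WT. TrF0802C averaged 119 and 141 CPM in Δ21168, 92.4 and 312 CPM in Δ80186, and 158 and 463 CPM in WT. The other adjacent pair was TrA0450W and TrA0451W. In Δ21168 TrA0450W was 1.38 lower than WT in darkness on the log2 scale, while TrA0451W was 0.57 higher in darkness and 1.60 higher in light. The dark libraries of TrA0451W overlapped with those of WT. TrA2079C and TrA2081W, the members with the highest ratios to WT in darkness, were also a pair, with different endings. The row numbered between them had a mean of at most 0.0839 CPM in every group. The remaining pairs were TrD0037W with TrD0040C and TrB1693W with TrB1696C. Of the genes in pairs, TrA0451W missed the rule without WT dark replicate 3, and TrB1696C without Δ21168 light replicate 3. TrA2079C, TrA2081W and TrD0037W also missed it with some library left out.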

How the data were processed

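The authors deposited 1 table of raw counts for each gene and library, as whole numbers. The description of a sample names its column, and 0 columns were left out. Titles put samples into groups. Reads were aligned with HISAT2 2.2.1, per the submitters' processing notes. The series' design text names the transcript set of a published complete QM6a genome as the sequence used. The sources used here do not state strand setting or handling of reads with several alignments, so reads of antisense partners and near-identical copies could not be told apart.

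CPM values were computed from the deposited counts on column totals. Tests used edgeR 4.0.16 (R 4.3.3): filterByExpr by group (minimum count 10, minimum total 15), which kept 9079 genes and removed 1800, TMM factors, and the robust quasi-likelihood test, with all 18 libraries fitted together and Benjamini-Hochberg adjustment over the genes tested. The SE was derived from the log2 fold change and the F statistic. The test was checked on simulated data. Alternatives were DESeq2 1.42.0, its size factors, library totals alone, no filter, only the groups compared, a replicate block, and each library left out. For the rule they were other pseudocounts, CPM minimums and TMM scaling. Replicate libraries differed by more than sampling noise (chi-square per degree of freedom at least 4.37), so none was counted as a duplicate.

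The members and lists were chosen with earlier results of these data known. Named members followed a fixed rule: per comparison with WT at most 2 higher and 2 lower (for averaged differences by fold among called members of at least 20 CPM; within a condition by ratio with no overlap of libraries), the 2 with the highest and the 2 with the lowest L in Δ21168, and the 2 most abundant. The pairs by number are named besides.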

Additional observations from a re-analysis of the deposited data

How the results depend on the processing

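The 8 counts of called members and the number of members by the rule were recomputed under each alternative. All stayed within 1.5 times the value reported, except the count called higher in Δ21168 against WT in darkness, 5, which ranged from 3 to 5 with a library left out. For the averaged difference of Δ21168, 20 to 25 members were called higher and 25 to 29 lower over 24 alternatives, and for Δ80186 17 to 21 and 33 to 39. In light 40 to 54 were higher and 8 to 9 lower in Δ21168, and in darkness 47 to 57 were lower. By the rule 64 to 93 rows were members over 23 alternatives, fewest with TMM scaling and most without Δ21168 dark replicate 3. With library totals alone the median log2 fold change of all genes in light in Δ21168 against WT was 0.10, against 0.02 with TMM factors. With only the groups compared, 74 of the 80 members passed the filter in light. The replicate numbers of the titles did not pair the libraries: deviations of same-numbered libraries correlated at -0.26 to 0.45, with 8 of 45 pairs over 0.1, and a library correlated best with its own number in 30 of 90 cases. With the replicate block, 23 members were called higher and 26 lower for the averaged difference of Δ21168, and 18 and 37 for Δ80186; the block ended the call of TrD1015C, already described. The cause of these shifts was not tested. Genes of few reads, such as TrG1069W, are limited by depth.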

Other observations

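Only the rows mat1-1-1, mat1-1-2 and mat1-1-3 carry gene names in the table. Genes of this name are mating type genes in filamentous fungi. None was a member. The highest group mean of mat1-1-1 was 0.105 CPM, in Δ21168 in light, and mat1-1-2 and mat1-1-3 were at 0 reads in every library, so that no light response is given for them.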
